A study of Mus musculus with 72 samples.

Results

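Transcripts of 4 clock-controlled transcription factors were followed across the day in the liver and the suprachiasmatic nucleus (SCN): Dbp, Tef and Hlf, which are the proline and acidic amino acid-rich (PAR) bZIP factors, and Nfil3 (also called E4BP4). They were taken by gene symbol from gene count tables that list 22823 genes for liver and 15759 for SCN, and all 4 were present in both and passed the filter on low counts. The 72 RNA-seq libraries came from C57BL/6 mice aged 8 to 12 weeks, purchased animals for which the labels name no engineered allele. The diet was either short of methionine and choline (MCD) or its isocaloric control, given for 11 days, the first 10 under a light-dark cycle and the last in constant darkness. On that last day tissue was taken at 6 circadian times (CT), CT00 to CT20, at steps of 4 h. This gave 24 groups, each with 3 libraries, 2 labelled male and 1 labelled female, although the protocol text speaks of male mice. Liver RNA came from the left lobe and SCN RNA from laser-microdissected brain sections. Mice were single-housed and fed ad libitum, and all groups shared this light schedule.

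PAR bZIP proteins bind the D-box, a short palindromic DNA element, as dimers and activate transcription. Nfil3 binds the same element and represses it, so the amount of each kind decides in textbook models when D-box genes are on. Dbp is a direct target of the core clock activators CLOCK and BMAL1 through E-boxes, while Nfil3 is repressed by the nuclear receptors REV-ERBα and REV-ERBβ. In liver, the PAR bZIP factors are known for daily control of detoxifying enzymes, and the SCN is the hypothalamic nucleus that sets the phase of clocks in other tissues.

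The sequences just upstream of the genes are shown because the 4 transcripts moved on a shared 24 h cycle with different phases, and these elements are the ones by which clock factors are known to act. The 250 bases before each start site were read from RefSeq (build GRCm38.p6). The RefSeq starts differ from the outermost starts of GENCODE given further on, so that both Tef windows and parts of the Dbp and Nfil3 windows lie inside the GENCODE gene spans. Capitals mark matches to the E-box CACGTG, the D-box TTATGTAA or TTACGTAA, the cyclic AMP response element TGACGTCA and AGGTCA, the core element of many nuclear receptors, all searched on both strands. The CCAAT box (CCAAT) was searched as well and is left in lower case. Dbp lies on the plus strand (chr7:45704997-45705246 for the window), Tef has a window for each of 2 starts on the plus strand (chr15:81802423-81802672 and chr15:81811164-81811413), Hlf lies on the minus strand (chr11:90390918-90391167), and so does Nfil3 (chr13:52981040-52981289).
Dbp: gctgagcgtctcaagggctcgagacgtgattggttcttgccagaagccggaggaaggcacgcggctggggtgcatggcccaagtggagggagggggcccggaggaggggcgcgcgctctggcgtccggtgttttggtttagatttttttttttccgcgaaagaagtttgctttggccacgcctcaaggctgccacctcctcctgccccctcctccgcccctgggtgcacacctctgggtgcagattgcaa
Tef, first start: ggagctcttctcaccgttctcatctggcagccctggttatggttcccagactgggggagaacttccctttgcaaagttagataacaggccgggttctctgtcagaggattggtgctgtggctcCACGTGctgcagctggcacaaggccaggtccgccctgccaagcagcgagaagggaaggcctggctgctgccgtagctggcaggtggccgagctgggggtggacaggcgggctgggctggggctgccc
Tef, other start: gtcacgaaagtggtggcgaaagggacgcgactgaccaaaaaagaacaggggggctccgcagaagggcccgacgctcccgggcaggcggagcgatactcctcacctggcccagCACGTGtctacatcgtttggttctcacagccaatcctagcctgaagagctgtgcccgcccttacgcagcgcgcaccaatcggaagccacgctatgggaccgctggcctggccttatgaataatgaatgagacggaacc
Hlf: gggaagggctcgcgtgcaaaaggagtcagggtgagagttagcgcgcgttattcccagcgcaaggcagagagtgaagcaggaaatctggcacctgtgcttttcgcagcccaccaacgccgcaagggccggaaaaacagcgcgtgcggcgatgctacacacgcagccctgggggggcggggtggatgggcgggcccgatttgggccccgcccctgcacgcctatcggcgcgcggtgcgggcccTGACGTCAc
Nfil3: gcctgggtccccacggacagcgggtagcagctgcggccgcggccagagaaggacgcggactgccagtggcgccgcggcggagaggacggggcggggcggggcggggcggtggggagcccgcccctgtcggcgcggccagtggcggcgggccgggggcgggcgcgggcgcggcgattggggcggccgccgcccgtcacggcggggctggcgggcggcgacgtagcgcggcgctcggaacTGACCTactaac

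Both Tef windows held an E-box, at bases -127 to -122 and -138 to -133 from their starts. Among 32851 promoter windows of the same length, 6.02% held an E-box. The Hlf window ended in a cyclic AMP response element at -9 to -2, which 1.55% of windows held. The Nfil3 window held TGACCT, the reverse complement of AGGTCA, at -12 to -7, and 14% of windows held that element. The Dbp window held none of these elements except a CCAAT box, which both Tef windows and the Nfil3 window also held, as did 33.8% of all windows. No window of the 4 genes held the D-box, which 0.931% of windows held. A match or its absence describes these letters in these windows only.

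In the annotation of build GRCm38 (GENCODE M21), Dbp spans chr7:45705088-45710203 on the plus strand, Tef chr15:81802421-81826863 on the plus strand, Hlf chr11:90336536-90390895 on the minus strand and Nfil3 chr13:52967209-52981073 on the minus strand. The exons of Dbp share 539 bases, 18% of its exonic length, with those of Sphk2 on the opposite strand, and the exons of Tef share 193 bases (2.45%) with the antisense gene Gm17597. No source used here says whether the counting used the strand, and reads in the shared bases cannot be assigned with certainty. Sphk2, a sphingosine kinase, was at 58.8 ± 16.7 CPM in liver (SD, n = 18) and 29.8 ± 6.95 CPM in SCN (SD, n = 18) on the control diet, and neither Sphk2 nor Gm17597 was called for the diet in either tissue (edgeR).

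Liver libraries held 52.6 to 86.7 M gene counts and SCN libraries 23.3 to 79.8 M. Hepatocyte and SCN neuron genes mostly went with the labelled tissues. The summed level of 5 hepatocyte genes was at least 67108 CPM in every liver library. That of the 2 of them listed for SCN was at most 26.7 CPM there. The sum of 6 SCN neuron genes was 1535 to 4058 CPM in SCN, while Avp, Vip, Six6 and Prok2 were not listed for liver. The other 2 of these 6 genes, Lhx1 and Rgs16, were listed there, with a summed level of 6.52 to 407 CPM. SCN libraries also held 1110 to 2278 CPM of 5 oligodendrocyte genes. The sum of 5 astrocyte genes was 1620 to 2062 CPM in SCN and 474 to 1773 CPM in liver. Listed genes of ependyma and choroid summed to 74.0 to 236 CPM in SCN (3 genes) and 228 to 403 CPM in liver (2 genes). The liver library named control CT08 a went against its label. Over the 9426 genes called for the diet in liver, on a scale where 0 is the control mean and 1 the MCD mean, it stood at 0.919, whereas the other 17 control libraries stood at -0.256 to 0.235 and the MCD libraries at 0.624 to 1.43. Its Fgf21 level was 16.7 CPM, against 0.401 to 4.68 CPM in the other control and 13.3 to 134 CPM in the MCD libraries. Values of the liver control group at CT08 and many results that rest on them are also given without it.

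Levels were compared between the genes as CPM (depth-normalised counts, scaled by the TMM factors of edgeR) per kilobase of annotated exon. In SCN on the control diet Dbp had the highest mean of the 4, with 59.3 ± 37.0 CPM per kb (mean and SD over the 18 libraries of all times). Hlf at 28.7 ± 9.90 and Tef at 24.9 ± 8.04 CPM per kb followed, and neither these neighbours nor Dbp and Hlf differed beyond their spread. Nfil3 was the lowest in SCN, at 6.45 ± 2.54 CPM per kb. In liver on the control diet, Tef was at 17.9 ± 11.2, Dbp at 17.3 ± 23.3, Nfil3 at 12.8 ± 7.79 and Hlf at 10.1 ± 3.83 CPM per kb, and no neighbours in that order differed beyond their spread. Without control CT08 a the order was the same, with Dbp at 16.2 ± 23.5 CPM per kb (17 libraries). The SDs hold the daily swing and are not errors of a level.

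All 4 transcripts cycled in SCN on both diets, and Dbp, Tef and Nfil3 did so in liver on both. A test of the 24 h cosine and sine terms over the time points was used (edgeR quasi-likelihood). It called 4 of 4 members in liver on the control diet, where 17.8% of all genes tested were called, and 3 of 4 on MCD, where 28.2% were. In SCN 4 of 4 were called on each diet, beside 15.1% of all genes on control and 16.1% on MCD. Hlf in liver was the exception: its rhythm was called on control (adjusted p = 0.0102) and not on MCD (adjusted p = 0.103), and a test of the difference between the diets did not call it (adjusted p = 0.703). On MCD it was called without MCD CT00 2 (adjusted p = 0.0341), without MCD CT12 2 (adjusted p = 0.0335) and without replicate number 2 throughout (adjusted p = 0.0312). The call on control ended when any 1 of the 3 replicate numbers was left out throughout, with adjusted p from 0.0755 to 0.18.

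Dbp, which encodes the D-site albumin promoter binding protein, had the widest daily swing of the members. In liver on the control diet its level was 0.476, 0.929 and 0.479 CPM at CT00 and 107, 238 and 171 CPM at CT08. On MCD it was 0.301, 0.809 and 0.651 CPM at CT00 and 145, 187 and 134 CPM at CT08. Every CT08 library stood more than 100 CPM above every CT00 library, and the 2 diets overlapped at both times. The mean at CT08 was 274 times that at CT00 on control and 265 times on MCD. Without control CT08 a, the lowest of the control CT08 libraries, the control value was 326 times. Adjusted p of the 24 h rhythm was 1.65e-09 on control and 1.18e-09 on MCD (edgeR), and by fitted 24 h range Dbp ranked 3 and 6 among the 2271 liver genes called rhythmic on both diets. At CT00 the counts themselves were low, with 25 and 21 reads in the lowest control and MCD library.

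In SCN, Dbp never fell to such levels. Its lowest control values were 64.1, 57.0 and 35.0 CPM at CT20 and its highest 323, 342 and 320 CPM at CT08. On MCD the lowest were 64.5, 54.5 and 54.7 CPM at CT16 and the highest 316, 360 and 310 CPM at CT04. The ratio of the highest to the lowest time mean was thus 6.31 on control and 5.67 on MCD, and adjusted p of the rhythm was 1.50e-13 and 6.74e-13 (edgeR).

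Tef, the thyrotroph embryonic factor, was at 34.1, 38.0 and 28.1 CPM in liver at CT00 and at 270, 275 and 224 CPM at CT12 on the control diet. At CT08 the control libraries held 131, 266 and 281 CPM, of which 131 CPM was control CT08 a. The highest time mean on control was thus that of CT12, at 256 CPM, with all libraries and that of CT08, at 273 CPM, without it. On MCD it rose from 20.0, 20.9 and 18.9 CPM at CT00 to 273, 255 and 236 CPM at CT08. Trough and peak libraries did not overlap, and the highest to lowest ratio of the time means was 7.67 on control (8.18 without control CT08 a) and 12.8 on MCD. In SCN the ratio was 2.25 and 2.36, from 126 ± 11.3 CPM at CT20 to 283 ± 31.9 CPM at CT08 on control (SD, n = 3). The trough of Tef in SCN was therefore above the liver trough in all libraries, while the highest time mean on control was 256 CPM in liver (273 CPM without control CT08 a) and 283 CPM in SCN.

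Hlf, the hepatic leukemia factor, had the flattest course in liver. On the control diet it was lowest at CT04, with 40.4, 36.6 and 59.4 CPM, and highest at CT12, with 111, 105 and 108 CPM. On MCD it was 76.2, 35.6 and 74.9 CPM at CT12 and 20.7, 61.5 and 53.7 CPM at CT04, so that single libraries differed within a group by more than the time means did. The ratio of the highest to the lowest time mean was 2.38 on control and 1.73 on MCD. In SCN the same gene cycled from 112 ± 7.06 CPM at CT20 to 281 ± 41.1 CPM at CT08 on control (SD, n = 3), a ratio of 2.52, and its adjusted p was 8.70e-11 on control and 2.62e-10 on MCD (edgeR).

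Nfil3, the repressor of the group, ran opposite to Dbp in both tissues. In liver on control it was 47.7, 59.0 and 33.1 CPM at CT00 and 9.21, 9.91 and 7.17 CPM at CT08. On MCD the highest time mean came at CT16, with 54.3, 37.6 and 47.6 CPM, and the lowest at CT08, with 9.92, 8.13 and 5.14 CPM. The ratio was 5.32 on control (5.46 without control CT08 a) and 6.02 on MCD, and trough and peak libraries did not overlap. In SCN Nfil3 went from 6.75, 7.05 and 6.68 CPM at CT08 to 19.2, 20.5 and 18.1 CPM at CT16 on control, a ratio of 2.82, and the ratio on MCD was 3.20.

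**Figure D1:**
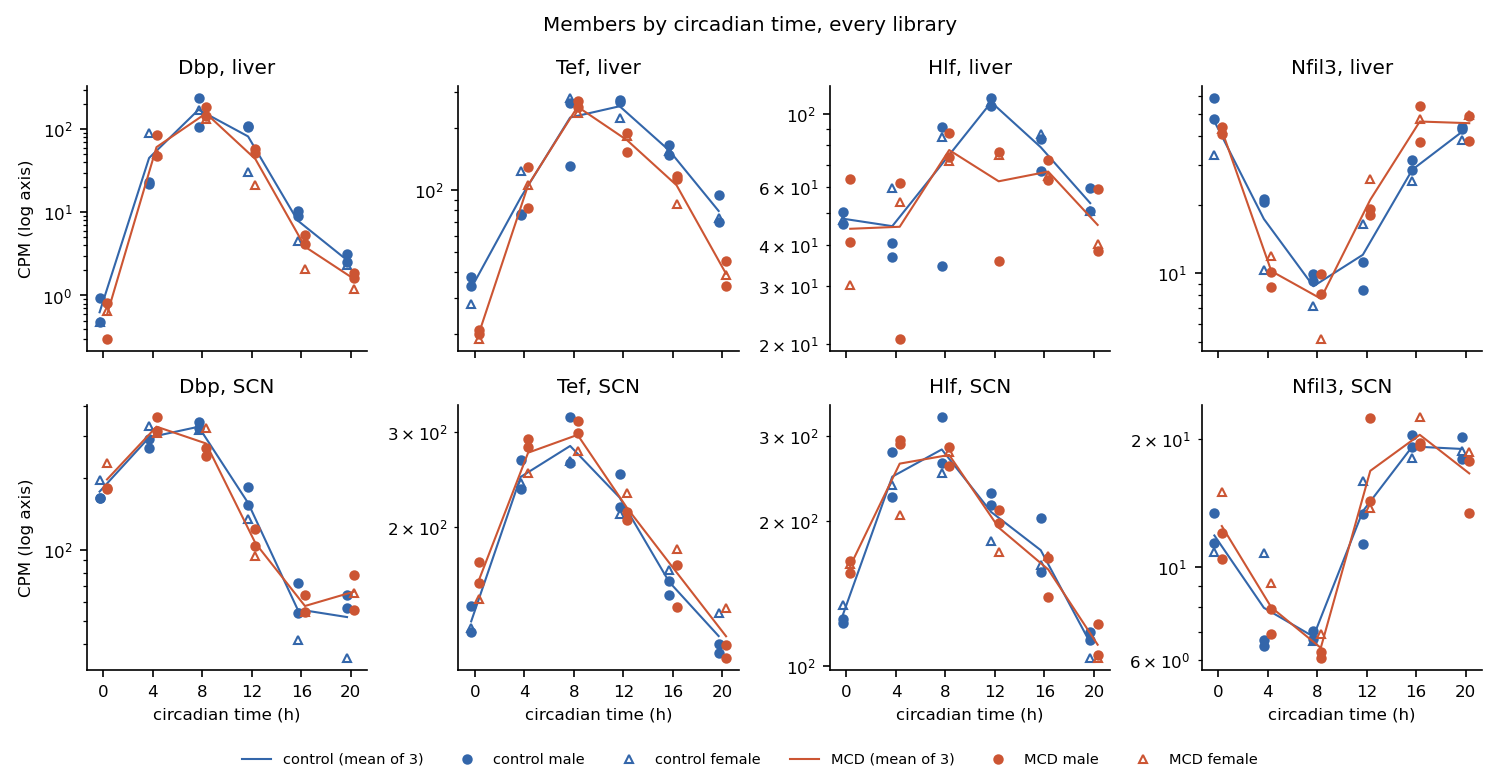
Level of each member (CPM, log axis that differs between panels) against circadian time in liver (top) and SCN (bottom); circles are males, triangles females, lines the mean of 3 libraries of a diet. Dbp in liver spans from below 1 CPM at CT00 to above 100 CPM at CT08, and Nfil3 is lowest at CT08 in both tissues.

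The peak of a 24 h cosine fitted to log2 CPM placed the members in liver in the order Dbp, Tef, Hlf and Nfil3. On the control diet Dbp peaked at 9.38 ± 0.415 h (SE of the fit, 18 libraries), Tef at 11.5 ± 0.382 h, Hlf at 13.03 ± 0.763 h and Nfil3 at 21.0 ± 0.351 h. Tef followed Dbp by 2.10 ± 0.564 h and Nfil3 followed Dbp by 11.7 ± 0.543 h, close to opposite phase on a 24 h cycle. The lag of Hlf behind Tef, 1.55 ± 0.853 h, was less than 2 SE. Without control CT08 a the liver peaks came at 9.36 h for Dbp, 11.3 h for Tef, 12.3 ± 0.476 h for Hlf and 21.05 h for Nfil3, and Hlf lagged Tef by 0.962 ± 0.597 h. In SCN on control Dbp peaked at 5.98 ± 0.273 h, Tef at 8.20 ± 0.296 h, Hlf at 8.33 ± 0.409 h and Nfil3 at 17.8 ± 0.332 h. Here Tef and Hlf peaked together, 0.128 ± 0.505 h apart, and Nfil3 followed Dbp by 11.9 ± 0.429 h. A single cosine described 90.0% of the variance between the time means of liver Dbp and over 90% for the other members on control in both tissues.

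Each member peaked earlier in SCN than in liver. On the control diet the lead of the SCN was 3.41 ± 0.496 h for Dbp, 3.28 ± 0.483 h for Tef, 4.70 ± 0.866 h for Hlf and 3.20 ± 0.483 h for Nfil3. Each member also led without control CT08 a, Hlf by 3.94 ± 0.628 h. On MCD the lead was 3.63 ± 0.426 h for Dbp, 2.69 ± 0.471 h for Tef, 4.61 ± 1.70 h for Hlf and 1.78 ± 0.629 h for Nfil3. A model of both tissues tested whether the 24 h components, range and phase together, differed between them. All 4 members were called on control (adjusted p = 2.93e-13 for Dbp, 1.57e-10 for Tef, 0.00286 for Hlf and 2.86e-06 for Nfil3, edgeR), where 16.9% of the 14491 genes listed for both tissues were called. On MCD, where 28.3% were called, all 4 were called as well, with the highest adjusted p at 0.0103 for Hlf. The call of Hlf ended on control without replicate number 1 throughout (adjusted p = 0.113), and on MCD without replicate number 1 (adjusted p = 0.262) or 3 (adjusted p = 0.067). The range was wider in liver for Dbp, Tef and Nfil3. That of Hlf on control, at 1.20 log2 in liver and 1.30 log2 in SCN, differed by less than its SE (0.238 and 0.139 log2 in the cosine fits), and the liver value was 1.31 log2 without the control CT04 female. On MCD the ranges of Hlf were 0.76 log2 in liver and 1.23 log2 in SCN.

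**Figure D2:**
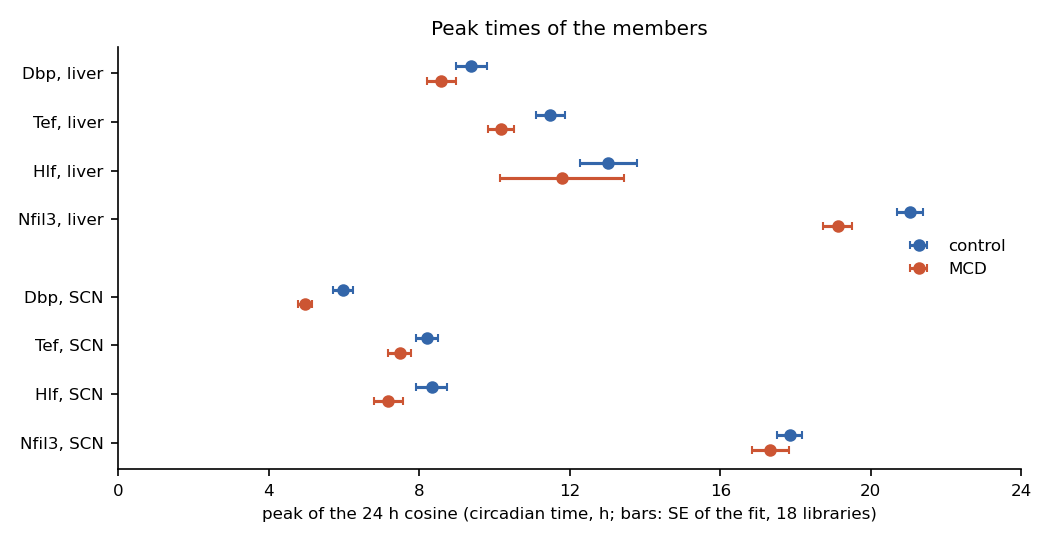
Peak of the fitted 24 h cosine (circadian time, h) for each member in each tissue and diet; points are the fits to 18 libraries and bars their SE. The PAR bZIP factors peak between 4.96 and 13.03 h and Nfil3 between 17.3 and 21.0 h, and every MCD point lies to the left of its control point.

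The mean level also differed between tissues. Dbp was higher in SCN by 2.44 ± 0.143 log2 (SE; adjusted p = 4.09e-22, edgeR) as a mean over times and diets, and Hlf by 0.70 ± 0.091 log2 (adjusted p = 5.41e-10). Nfil3 was lower in SCN, with a difference of -1.92 ± 0.0821 log2 (adjusted p = 5.61e-28). With library totals alone these differences were 3.07 log2 for Dbp, 1.34 for Hlf and -1.29 for Nfil3, each still called. For Tef the difference was -0.02 ± 0.0612 log2 (adjusted p = 0.735), and its direction turned with the scaling, to 0.052 log2 with RLE, where it was not called, and 0.61 log2 with library totals alone, where it was called (adjusted p = 6.69e-15). The calls of 3 of 4 members, or of 4 of 4 with library totals, stand beside 92.3% of all genes called between the tissues. In whole tissue, fewer cells of a type and less RNA per cell cannot be told apart.

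The sum of the 3 PAR bZIP transcripts per kilobase was set against Nfil3 in each library, since both kinds of factor bind the same element. In liver on control the ratio was lowest at CT00, with 0.434 to 0.665 over the 3 libraries, and highest at CT08, with 12.7 in control CT08 a and 25.9 and 29.9 in the other libraries. On MCD it ran from 0.337 to 0.571 at CT00 up to 19.6 to 33.8 at CT08. At CT04 the control libraries had ratios of 2.24, 2.24 and 10.7, the last being the female and also the only library of its group with low mt-Nd6 (a mitochondrial transcript by which liver libraries fell into 2 kinds), and the MCD libraries 6.84, 10.8 and 6.57, so the diets overlapped and the MCD median was higher. At CT12 the control libraries had ratios of 6.74, 15.8 and 20.7 and the MCD libraries 3.27, 4.64 and 5.92, so the diets did not overlap. At CT16 all control ratios were between 2.04 and 2.72 and all MCD ratios between 0.907 and 1.41, again with no overlap. At CT20 the ratios were 0.817 to 1.01 on control and 0.460 to 0.626 on MCD, with no overlap either. The difference of these ratios between diets was not tested. Groups apart were common in liver: MCD libraries lay below all control libraries for 14.2% of single genes at CT12, 15.1% at CT16 and 13.6% at CT20. In SCN the ratio stayed above 1 in every library: it was lowest at CT20 on control, at 4.85 to 6.00, and reached 53.9 to 59.3 at CT08. Dbp made up 59.4% of the PAR bZIP sum in liver at CT08 on control (58.8% without control CT08 a) and 1.80% at CT00, when Hlf made up 61.7%. In SCN the share of Dbp moved less, from 28.9% at CT16 to 61.9% at CT00.

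**Figure D3:**
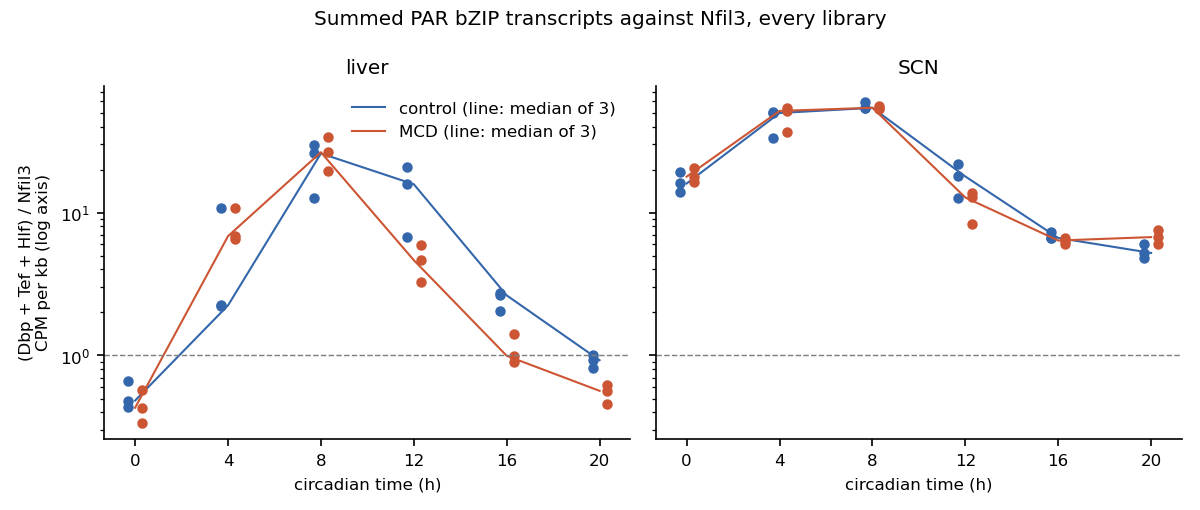
Ratio of summed Dbp, Tef and Hlf to Nfil3 (CPM per kb of exon, log axis) against circadian time in liver and SCN; points are libraries, lines the median of 3, and the dashed line marks a ratio of 1. All liver libraries lie below 1 at CT00 and above it from CT04 to CT12, and the MCD libraries reach 0.907 to 1.41 at CT16, while all SCN libraries stay above 1.

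Tef was lower on MCD in liver as a mean over the day, and with all libraries no other member passed the edgeR test there. Of the 4 members, 1 was called, where 46.6% of all liver genes were called, 25.3% higher and 21.2% lower (edgeR, adjusted p under 0.05). Tef fell by 0.42 ± 0.0892 on the log2 scale (SE; adjusted p = 0.000381). Its MCD libraries stood below all control libraries at 4 of 6 times, CT00, CT12, CT16 and CT20, and 6.88% of all liver genes did so at 4 or more times. At these single times the MCD libraries lay below all control libraries for 13.4%, 14.2%, 15.1% and 13.6% of genes. The values were -0.44 ± 0.217 log2 for Dbp (adjusted p = 0.0968), -0.20 ± 0.138 log2 for Hlf (adjusted p = 0.241) and 0.10 ± 0.104 log2 for Nfil3 (adjusted p = 0.467). Dbp passed the test in DESeq2 (-0.45 log2, adjusted p = 0.0461), and in edgeR without control CT04 1 (-0.51, adjusted p = 0.0438) or control CT04 2 (-0.51, adjusted p = 0.0419). Without the control CT04 female it was at -0.21 log2 (adjusted p = 0.273), and with library totals alone at -0.18 log2 (adjusted p = 0.478). Without control CT08 a, the value of Tef was -0.47 (adjusted p = 5.31e-06), that of Dbp -0.50 (adjusted p = 0.0585) and that of Hlf -0.27 (adjusted p = 0.0777). Scaling by library totals alone moved the median diet effect of all liver genes to 0.27 log2. On that scale Tef was at -0.16 (adjusted p = 0.0603) and Nfil3 at 0.35 (adjusted p = 0.00357). Relative to the median gene Tef was at -0.43 on both scales and Nfil3 at 0.08. A change of scaling moves all genes by about the same amount, so this agreement is no check of the Tef result.

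Single times show where the Tef difference lay. At CT20 the control libraries held 94.6, 70.4 and 73.0 CPM of Tef and the MCD libraries 34.0, 45.2 and 38.5 CPM. At CT00 the control libraries held 34.1, 38.0 and 28.1 CPM and the MCD libraries 20.0, 20.9 and 18.9 CPM. Both pairs of groups were apart, and Tef fell by 1.01 ± 0.220 on the log2 scale at CT20 (adjusted p = 0.00383, edgeR; 11.3% of genes called at that time) and by 0.74 ± 0.220 at CT00 (adjusted p = 0.0261; 12.6% called). The CT00 call ended without control CT00 1 or 2 or MCD CT00 1 or 3, with adjusted p up to 0.109, and with library totals alone (adjusted p = 0.057). The CT20 call ended without replicate number 1 throughout (-0.78 log2, adjusted p = 0.242) or 2 (-1.21 log2, adjusted p = 0.062), and the CT00 call without any 1 of the 3 numbers (adjusted p from 0.0688 to 0.3). At CT04 and CT08 the diets overlapped, with differences of 0.20 ± 0.218 and 0.17 ± 0.218 log2. Without control CT08 a, the control mean of Tef at CT08 was 273 CPM, above the MCD mean of 255 CPM. The differences at CT12 and CT16, -0.55 and -0.56 log2, were not called (adjusted p = 0.0872 and 0.0895), and were called without control CT08 a (adjusted p = 0.0273 and 0.0239).

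Nfil3 in liver differed between diets in both directions within the day. At CT04 the control libraries held 21.1, 20.5 and 10.3 CPM of Nfil3, against 8.70, 10.1 and 11.8 CPM in the MCD libraries. At CT12 the control values were 11.2, 8.47 and 16.5 CPM and the MCD values 18.1, 19.3 and 25.8 CPM. The groups overlapped at CT04 through the control female and were apart at CT12, as were those of 15.6% of genes with MCD above. Nfil3 fell by 0.74 ± 0.258 on the log2 scale at CT04 (adjusted p = 0.0446, edgeR; 18.2% called) and rose by 0.80 ± 0.257 at CT12 (adjusted p = 0.0356; 15.2% called). The CT04 call ended without any 1 of 19 of the 36 libraries, with adjusted p up to 0.201. It also ended with library totals alone (-0.44 log2, adjusted p = 0.179), with no filter on low counts (adjusted p = 0.0509) and with a replicate block that leaves out the control CT08 males (adjusted p = 0.0549). The CT12 call ended without control CT12 1 or 2 or MCD CT12 2 or 3, with adjusted p up to 0.184. Without replicate number 1 or 2 throughout both calls ended, with adjusted p of 0.553 and 0.316 at CT04 and 0.2 and 0.363 at CT12. At CT16 the MCD libraries, at 54.3, 37.6 and 47.6 CPM, all exceeded the control libraries at 28.5, 31.6 and 25.5 CPM, as for 20.1% of genes, with a difference of 0.71 ± 0.254 log2 that was not called (adjusted p = 0.0666).

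Dbp in liver had differences of -0.89 ± 0.484, -1.05 ± 0.508 and -0.78 ± 0.544 log2 at CT12, CT16 and CT20, none of them called. At CT20 its MCD libraries, at 1.89, 1.63 and 1.19 CPM, all lay below the control libraries at 3.17, 2.51 and 2.31 CPM, as for 13.6% of genes. Hlf on MCD was below control in all libraries at CT12, as were 14.2% of genes, and its difference of -0.80 ± 0.339 log2 was not called (adjusted p = 0.108). At CT08 no member was called, and 1.3% of genes were, with control CT08 a among the control libraries. Without that library the CT08 means on control were 205 CPM for Dbp, 273 for Tef, 87.9 for Hlf and 8.54 for Nfil3. The MCD means at that time were 156, 255, 77.5 and 7.73 CPM, each below control.

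**Figure D4:**
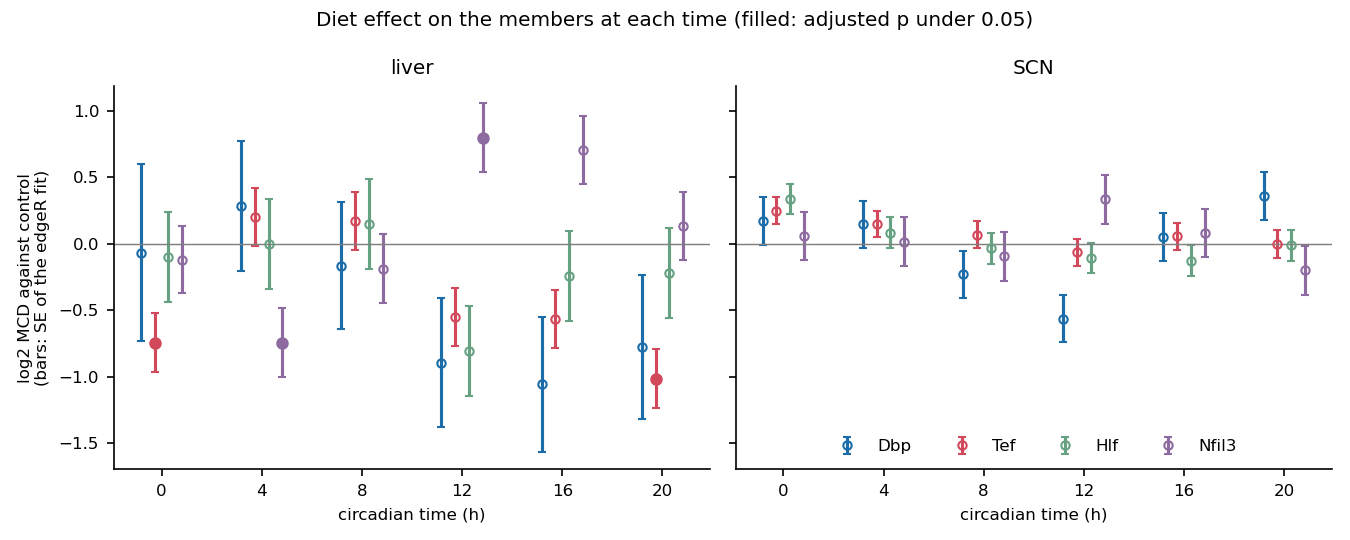
Log2 difference of MCD against control for each member at each circadian time in liver and SCN; bars are SE of the edgeR fit and filled points have an adjusted p under 0.05. In liver, 4 points are filled, Tef at CT00 and CT20 and Nfil3 at CT04 and CT12, and none is in SCN.

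The 24 h rhythm itself differed between diets in liver for Tef and Nfil3. These 2 of 4 members were called, beside 4.87% of all liver genes (edgeR; adjusted p = 0.0205 for Tef and 0.0155 for Nfil3). The fitted range of Tef was 2.75 log2 on control and 3.37 log2 on MCD, and that of Nfil3 2.49 and 2.87 log2. For Dbp the ranges were 7.65 and 7.91 log2 (adjusted p = 0.339). Without control CT08 a, adjusted p was 0.0159 for Tef, 0.0176 for Nfil3 and 0.375 for Dbp. Dbp was called without the control CT04 female (adjusted p = 0.00965) and without replicate number 3 throughout (adjusted p = 0.0454). Leaving out replicate number 1 or 2 throughout ended the calls of Tef and Nfil3, with adjusted p from 0.241 to 0.403, and a replicate block that leaves out the control CT08 males ended that of Tef (adjusted p = 0.0698).

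With all libraries, the fitted peak of each member came earlier on MCD in both tissues, by amounts that were not all beyond the spread. A permutation test exchanged diets within time and sex, two-sided with 100000 resamples, and the p of its 8 comparisons are unadjusted. In liver the shift from control to MCD was -1.93 ± 0.520 h for Nfil3 (permutation p = 0.00079), -1.31 ± 0.520 h for Tef (permutation p = 0.0008), -0.79 ± 0.566 h for Dbp (permutation p = 0.00613) and -1.24 ± 1.82 h for Hlf (permutation p = 0.491). Among all liver genes called rhythmic on both diets, 79.7% peaked earlier on MCD, with a median shift of -1.74 h, so an earlier peak was not particular to the members. The shift of Dbp lost its p under 0.05 without any 1 of the 3 control CT00 libraries or without MCD CT04 3, with permutation p from 0.0623 to 0.169. That of Hlf was -2.85 h without MCD CT04 1 (permutation p = 0.0455) and -0.479 h without control CT08 a (permutation p = 0.753).

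In SCN the shift was -1.02 ± 0.328 h for Dbp (permutation p = 0.00121), -1.16 ± 0.565 h for Hlf (permutation p = 0.0115), -0.72 ± 0.429 h for Tef (permutation p = 0.0224) and -0.51 ± 0.600 h for Nfil3 (permutation p = 0.422). All genes called rhythmic on both diets had a median shift of -0.945 h in SCN, and 83.6% peaked earlier on MCD. The p of Tef passed 0.05 when 1 of 7 single libraries was left out, up to 0.117, and that of Hlf when 1 of 4 was left out, up to 0.062. The shift of Nfil3 was 0.00989 h, in the other direction, without MCD CT12 1 (permutation p = 0.983). Across all genes in SCN, the edgeR test of the rhythm difference called no member, and 0.0127% of genes. Before adjustment edgeR held 2 members under 0.05, Dbp at 0.00329 and Hlf at 0.0241, and DESeq2 called none (adjusted p = 0.267 for Dbp).

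In SCN no member passed the test for a diet effect on its mean level. The diet effect was -0.01 ± 0.0728 log2 for Dbp, 0.08 ± 0.0414 for Tef, 0.02 ± 0.0472 for Hlf and 0.03 ± 0.0748 for Nfil3, none with an unadjusted p under 0.05 by edgeR or DESeq2. Within 2 SE, changes of Dbp beyond -0.16 to 0.14 log2 and of Tef beyond -0.01 to 0.16 log2 lie outside these intervals. The share of all SCN genes called was 0.0635%. At single times 0 of 24 member and time pairs were called, beside 0.0444% of genes at CT04, 0.00635% at CT00, CT16 and CT20, and 0% at CT08 and CT12. Before adjustment 3 pairs had a p under 0.05 (edgeR). At CT12 the MCD libraries held 104, 122 and 93.8 CPM of Dbp, all below the control libraries at 154, 183 and 135 CPM, as for 4.74% of genes. That difference of -0.56 ± 0.178 log2 had an unadjusted p of 0.00379 and an adjusted p of 0.999 (edgeR), and DESeq2 was not run for this comparison. At CT00 the MCD libraries of Tef and Hlf were all above those of control, by 0.25 ± 0.102 and 0.34 ± 0.116 log2, with adjusted p of 0.992 and 0.83 (edgeR), and 5.34% of genes had all MCD libraries above control at that time.

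The diet effect on Tef differed between the tissues. SCN minus liver was 0.50 ± 0.0998 log2 (adjusted p = 9.51e-05, edgeR), and 34.7% of the genes listed for both tissues were called. Values for the other members were 0.44 ± 0.226 for Dbp (adjusted p = 0.130), 0.23 ± 0.147 for Hlf (adjusted p = 0.230) and -0.06 ± 0.130 log2 for Nfil3 (adjusted p = 0.763). With 1 replicate number left out throughout, these ran from 0.18 to 0.61 log2 for Dbp and from 0.14 to 0.35 log2 for Hlf. With library totals alone they were 0.28 log2 for Dbp, 0.08 for Hlf and -0.21 for Nfil3. None of these values was called. The Tef difference was 0.54 log2 without the liver library control CT08 a and 0.34 log2 with library totals alone, and was called in each case.

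Liver libraries also fell into 2 kinds by the mitochondrial transcript mt-Nd6, with 41.6 to 119 CPM in 21 libraries and 414 to 925 CPM in 15. The low kind held 8 control and 13 MCD libraries. With the kind as a term in the model, the diet effect on Tef was -0.43 log2 (adjusted p = 0.000678) and its rhythm difference had an adjusted p of 0.0214 (edgeR), while the difference of Nfil3 at CT04 was no longer called (adjusted p = 0.0759). The summed level of 4 listed macrophage genes was 108 to 285 CPM in control libraries and 172 to 354 CPM in MCD libraries, and that of 4 stellate cell genes 148 to 518 and 222 to 780 CPM. Their part in the liver results was not tested.

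No member passed the test for a difference in mean level between the sexes in either tissue (edgeR), where 9.44% of genes were called in liver and 9.89% in SCN. Hlf in SCN had an unadjusted p of 0.0227, with a difference of -0.12 ± 0.0504 log2 for females (adjusted p = 0.122). Without the control CT04 female, Dbp in liver was called lower in females, at -0.67 log2 (adjusted p = 0.0138, edgeR), against -0.38 ± 0.237 log2 with all libraries (adjusted p = 0.388). Dbp in liver at CT04 on control was 90.1 CPM in the female and 23.0 and 22.3 CPM in the males, while at CT12 the female had 30.7 CPM and the males 108 and 107 CPM. On MCD the CT12 female, at 21.4 CPM, was below the males at 51.7 and 57.8 CPM, and the CT04 female, at 50.8 CPM, lay between males at 47.4 and 84.8 CPM. The kind of library by mt-Nd6 moved with these values, and at CT04 and CT12 the libraries low in mt-Nd6 held more Dbp. In all other liver groups with both kinds the high libraries held more Dbp. At CT08 on MCD, for example, the high library held 187 CPM and the low libraries 145 and 134 CPM. On control the CT04 female was low in mt-Nd6 (78.0 CPM) and both males high (887 and 550 CPM), and the CT12 female was high (875 CPM) and both males low (112 and 109 CPM). On MCD the CT12 female was high (414 CPM) and both males low (96.4 and 41.6 CPM), and at CT04 only the male with 47.4 CPM of Dbp was high (492 CPM). On control at CT20 the female was low (104 CPM) and both males high (783 and 630 CPM). Within each group where the female differs in kind from both males, sex and kind cannot be told apart. Fitted by sex on control in liver, Dbp peaked at 8.47 ± 1.06 h in 6 females and 9.84 ± 0.364 h in 12 males, Tef at 10.7 ± 0.878 and 11.9 ± 0.385 h, Hlf at 11.6 ± 0.333 and 13.7 ± 1.04 h, and Nfil3 at 19.7 ± 0.628 and 21.6 ± 0.280 h. The peak of each member came earlier in the females of liver. These control males include control CT08 a, and fits by sex without it were not made. On MCD the gaps were smaller, with peaks of females and males at 8.11 ± 0.718 and 8.82 ± 0.486 h for Dbp and 10.0 ± 0.668 and 10.2 ± 0.464 h for Tef. For Hlf they were 11.0 ± 0.638 and 12.6 ± 3.25 h, and for Nfil3 19.11 ± 0.863 and 19.12 ± 0.444 h. In SCN the peaks of females and males were 5.68 ± 0.513 and 6.17 ± 0.245 h for Dbp, 8.36 ± 0.754 and 8.14 ± 0.296 h for Tef, 7.78 ± 0.810 and 8.57 ± 0.493 h for Hlf and 17.6 ± 1.22 and 17.9 ± 0.195 h for Nfil3. A test of the 24 h components between the sexes, added after these values were seen, gave liver Dbp an unadjusted p of 0.000568 and an adjusted p of 0.369 (edgeR; 0.658 when the model holds a term for that kind), and called no member in either tissue. In SCN the unadjusted p was 0.00343 for Tef and 0.00577 for Dbp, with adjusted p of 0.206 and 0.222 (edgeR). The background of that test was 0.00988% of genes in liver and 0% in SCN. With 1 female a group, the course of females rests on single animals.

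Shares of exon bins within the gene differed between the tissues for Tef and Hlf. Exon bins are numbered parts of exons in the authors' counting. Of 39 member bins with a mean of at least 10 counts in either tissue, 7 had shares of the gene's counts whose ranges did not overlap between 34 liver and 36 SCN libraries, against 4.37% of all 190441 bins. With a minimum mean of 50 counts these were 7 of 37 member bins and 6.01% of all bins. Bin 16 of Tef and bin 12 of Hlf passed the minimum of 10, and also that of 50, through liver alone. Their means were 50.74 and 57.35 counts in liver and 6.47 and 1.92 counts in SCN. With the minimum held in both tissues, a choice made after seeing the data, 5 of 36 member bins were apart, against 4.81% of all bins. Bin 15 of Tef took 4.10% to 11.0% of the counts of Tef in liver and 0.0622% to 2.13% in SCN, and bin 16 took 0.483% to 1.40% and 0% to 0.38%. Bin 22, the most counted, took 40.8% to 50.0% in liver and 50.6% to 64.4% in SCN. Bin 1 of Hlf took 19.2% to 28.8% in liver and 30.2% to 47.5% in SCN, whereas bin 12 took 0.82% to 4.08% in liver and at most 0.442% in SCN. No bin of Dbp or Nfil3 had ranges apart between tissues. For Dbp this says little, since liver libraries at CT00 held few counts and the shares spread widely there, as for bin 4 from 0% to 12.3%, and the medians of bin 3 were 16.6% in liver and 10.3% in SCN. Between the diets, 0 of 39 member bins in liver and 0 of 38 in SCN had ranges apart, beside 0.0113% and 0% of all bins. With a minimum of 50 counts, 0 of 35 in liver and 0 of 33 in SCN were apart, beside 0.0184% and 0%.

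**Figure D5:**
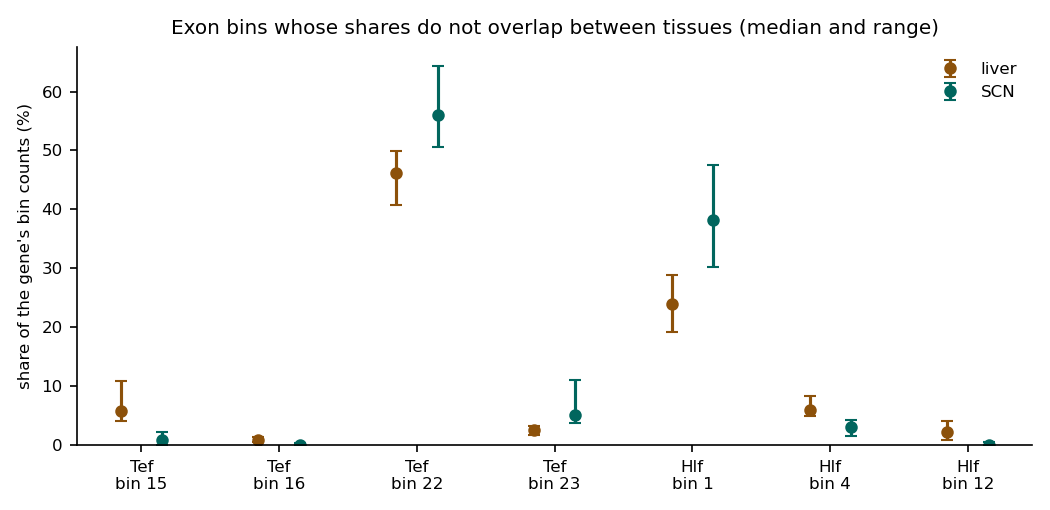
Share of the gene's exon bin counts (%) for the 7 bins of Tef and Hlf whose ranges do not overlap between liver (34 libraries) and SCN (36 libraries); points are medians and bars the lowest and highest library. Bins 15 and 16 of Tef and 4 and 12 of Hlf are higher in liver, and bins 22 and 23 of Tef and 1 of Hlf are higher in SCN.

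Over the 12 group means of each tissue, the genes whose log2 CPM followed each member most closely were ranked by Pearson r, as a description over means that share libraries. In liver, Per3, a period gene of the clock, had the highest r with Tef (0.994), and Bhlhe41 (0.936) and Nr1d2 (0.933), both clock repressors, the highest with Dbp. Maml3, Gmnn and Gm45315 came next for Dbp, and Gm45315, Etnk2, A930033H14Rik and Ccbe1 for Tef. For Hlf they were Gfra1 (0.953), Ap3m1-ps, Cdk18, Uqcc1 and Epop, and for Nfil3 Lgalsl (0.970), Zscan20, Leo1, Gm8990 and Zbtb21. In SCN, Hlf was among the 5 genes most like Tef (r = 0.982), beside Crybg1 (0.990), Slc6a17, Slc6a15 and Slc2a13, while in liver r between Tef and Hlf was 0.752. Those of Hlf in SCN were Tef, Gm11805, Slc6a17, Mxi1 and Crybg1. Dbp in SCN was followed by 1700016P03Rik (0.975), by Prok2 (0.972), which encodes an output peptide of the SCN, and by Eef2, Coq10b and Ciart, and Nfil3 by Fam43a (0.987), Tmem131, Nlk, Galnt9 and Hnrnpm. Between Dbp and Nfil3 r was -0.947 in liver and -0.946 in SCN.

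Among 15 genes of the core clock, 6 were called for the diet in liver, 3 higher and 3 lower, a share below the 46.6% of all liver genes called. On control 13 of the 15 were rhythmic, beside 17.8% of all genes. The largest changes were those of Ciart (0.80 log2, adjusted p = 0.00371, edgeR) and Per1 (0.66, adjusted p = 0.0217), which rose, and of Per3 (-0.64, adjusted p = 0.00399), which fell as Tef did. The rhythm differed between diets, as for 4.87% of all genes, for Arntl, which encodes BMAL1 (adjusted p = 0.0269), and Ciart (adjusted p = 0.0278). Of the 13 rhythmic on both diets, 12 peaked earlier on MCD, where 79.7% of all such genes did, and the median shift was -1.30 h. In SCN, no clock gene was called for the diet (2 had an unadjusted p under 0.05, edgeR), 13 were rhythmic on both diets, and all 13 peaked earlier on MCD, beside 83.6% of all such genes, with a median shift of -0.895 h.

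Of 17 genes known to depend on D-box factors, 8 were called for the diet in liver, 7 higher and 1 lower. That share is near the 46.6% of all liver genes called, with 25.3% of all genes higher and 21.2% lower. The median of the list was 0.39 log2 against 0.02 for all genes. Fgf21, a hormone of the fasting liver, rose by 4.56 ± 0.406 log2, and the cytochrome genes Cyp2a4 and Cyp2b10 by 2.73 and 1.99 log2 (adjusted p = 3.01e-09, 0.000533 and 0.00216, edgeR). Reads of Cyp2a4 are uncertain, since the near-identical Cyp2a5 can share them. Rhythm differences were called for 4 of the 17, beside 4.87% of all genes. The largest were those of Alas1, the first enzyme of heme synthesis, Pdxk, which activates vitamin B6, and Por, the electron donor of cytochromes P450, whose peaks moved by -3.39, -3.30 and -2.31 h (adjusted p = 0.00888, 0.006 and 0.0405). Only 9 of the 17 were listed for SCN, of which 3 were rhythmic on control beside 15.1% of all SCN genes, and none was called for the diet (1 with an unadjusted p under 0.05, edgeR).

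The C/EBP factors are bZIP proteins that bind DNA sites related to the D-box. In liver 5 of 6 were called for the diet, 4 higher and 1 lower, beside 46.6% of all genes, 25.3% higher and 21.2% lower. The largest changes were those of Ddit3 (1.48 ± 0.140 log2), Cebpe (0.90 ± 0.105) and Cebpd (0.53 ± 0.139), with adjusted p of 4.72e-09, 1.28e-07 and 0.00257 (edgeR). The median of the list was 0.53 log2. The rhythm of 1 of the 6, Cebpg, differed between diets (adjusted p = 0.0121), beside 4.87% of all genes. Of 5 listed in SCN, none had an unadjusted p under 0.05 for the diet (edgeR).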

How the data were processed

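RNA from 36 liver and 36 SCN samples was sequenced from a stranded poly-A library kit, per the labels' protocols. The authors deposited counts per gene for each tissue and counts per exon bin for each library. The submitters' processing notes name Trimmomatic, HISAT2, StringTie, DESeq2 and GRCm39, with no versions, and the sources used here give no counting settings, strand included. Total gene counts ran from 52.6 to 86.7 M in liver and 23.3 to 79.8 M in SCN. PCR duplicates cannot be told from independent molecules in such counts. Groups came from the labels, which the design text describes as 2 males and 1 female for each time. The 2 male columns of control CT08 share a name in each table, and are called a and b.

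Counts were tested in R 4.3.3 with edgeR 4.0.16 (TMM scaling, filterByExpr with a minimum count of 10, robust quasi-likelihood fit), with 12 groups of diet and time plus sex in each tissue. The filter kept 20249 of 22823 liver genes and all 15759 SCN genes. Contrasts gave the diet effect over times and at each time, and the 24 h cosine and sine components. P-values were adjusted by Benjamini-Hochberg over all genes of a test, and 0.05 was the threshold. A model of both tissues used the 14491 genes listed in both. Peak times came from a cosine fitted to log2 CPM (prior count 2). Alternatives were RLE scaling, library totals, DESeq2 1.42.0, no filter, no term for sex, a replicate block, the kind of liver library, and leaving out libraries.

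On simulated counts for 20249 liver genes, 100% of diet changes of 1 log2 and 88% of rhythms with a range of 1 log2 were recovered. For 15759 SCN genes these were 100% and 74%. The simulated spread between replicates was the same for all genes and lower than in the data. There the common biological coefficient of variation was 0.306 in liver and 0.246 in SCN. Changes were placed only in well-counted genes, so these rates may overstate recovery in the data. No pair of replicates agreed within sampling noise, as the lowest chi-square per degree of freedom was 24.2 in liver and 24.1 in SCN. Exon bins were compared by the range of their shares over libraries. Of the bin files, 2 liver files end early and were not used.

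Members and gene lists were chosen with earlier results of these data known. In every result all 4 members were named. Named beside them were the 5 genes with the highest r to a member among those of at least 1 CPM, the 3 called genes with the largest change in each list, and genes overlapping a member.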

Additional observations from a re-analysis of the deposited data

Results flagged for a closer look

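Results named here are differences between the tissues under 1 contrast, each from the model of both tissues (edgeR). The diet effect on Tef differed by 0.50 log2 between SCN and liver. The range of the difference in 24 h rhythm on control was 6.15 log2 for Dbp, 2.11 for Tef, 1.36 for Hlf and 1.87 for Nfil3. On MCD it was 6.72 log2 for Dbp, 2.57 for Tef, 1.13 for Hlf and 1.60 for Nfil3. These ranges hold both a change of range and a change of phase. Liver and SCN libraries came from separate RNA preparations and differ in input and total counts, whose part in these differences was not tested.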

How the results depend on the processing

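Under alternatives other than left-out libraries, 261 of 272 tests of a member kept their direction and their side of the threshold, 6 reversed (the tissue difference of Tef was called with library totals), 3 gained a call and 2 lost one (tests at single times not counted). These exceptions and the counts of genes that moved follow, and the cause was not tested. Scaled by library totals alone, the liver diet effect was -0.16 log2 for Tef, 0.047 for Hlf and 0.35 for Nfil3, Hlf on MCD was called rhythmic (range 0.76, adjusted p = 0.0445, edgeR), liver gene calls summed over times were 23933 against 14393, those in SCN 6 against 10, the SCN rhythm difference of Nfil3 was -0.0068, and the tissue difference of Tef was 0.61 (0.052 with RLE scaling). DESeq2 called Dbp for the diet in liver (-0.45, adjusted p = 0.0461) and called 2061 against 986 genes for the liver rhythm difference, 44 against 10 for the SCN diet effect and 7 against 2 for the SCN rhythm difference. Without a term for sex, the SCN counts were 6 for the diet, 1 for the rhythm difference and 5 over times. On CPM without the log, Dbp in liver peaked at 8.64 h on control and 7.77 h on MCD.

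Replicate numbers did not pair the samples, as same-numbered libraries had residual r of -0.215 to 0.291 in liver and -0.171 to 0.254 in SCN. With the replicate block (without the control CT08 males), 651 liver genes differed in rhythm, Tef there was at 0.47 (adjusted p = 0.0698, edgeR), and SCN counts were 4 for the diet, 1248 against 2378 for rhythm on control and 1 for the rhythm difference, where Tef was at 0.052 and Nfil3 at -0.077. A replicate block across tissues, chosen after seeing the data and run without the control CT08 males, gave 1384 against 2455 genes with a tissue difference in rhythm on control, and same-numbered libraries of the 2 tissues correlated at -0.0300 to 0.133.

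Leaving out single libraries or 1 replicate number throughout gave these ranges. The liver diet effect was -0.58 to -0.21 log2 for Dbp and -0.016 to 0.17 for Nfil3. Liver genes called rhythmic were 565 to 3957 on control and 2448 to 6240 on MCD, and the range of Hlf was 1.14 to 1.31 and 0.44 to 1.37 log2 (cosine fit on MCD 0.47 to 1.42). For the liver rhythm difference, 4 to 1243 genes were called, and the change in range was 0.086 to 0.42 for Dbp, 0.49 to 0.78 for Tef, -0.70 to 0.14 for Hlf and 0.046 to 0.58 for Nfil3. Member and time pairs called in liver were 0 to 6, gene calls over times 1107 to 18335, and members called for sex 0 to 1. In SCN, 0 to 17 genes were called for the diet, where Dbp was at -0.081 to 0.027 and Nfil3 at -0.018 to 0.072 log2, 811 to 2621 and 775 to 2911 were rhythmic on control and MCD, 771 to 2376 were called for sex, and calls over times were 3 to 14. The SCN rhythm difference held 1 to 5 genes, and the change in range was -0.31 to 0.0014 for Dbp, -0.071 to 0.047 for Tef, -0.11 to 0.00076 for Hlf and -0.13 to 0.14 for Nfil3. Peak shifts in liver were -1.16 to -0.611 h for Dbp and -2.85 to -0.479 h for Hlf, and in SCN -0.907 to -0.576 h for Tef, -1.40 to -0.873 h for Hlf and -0.734 to 0.00989 h for Nfil3. Between tissues, where only the liver library control CT08 a and the 3 replicate numbers were left out in turn, the level of Tef differed by -0.059 to 0.023 log2 and the diet effect on Nfil3 by -0.13 to 0.029, with 2941 to 5547 genes called for the diet effect. The rhythm difference of Hlf ranged from 1.23 to 1.54 on control, with 603 to 2377 genes called, and from 0.84 to 1.42 on MCD, with 1492 to 4369 called.

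Precision is limited by 3 libraries a group and 1 female in each, by reads that overlapping genes share, and by 21 counts in the lowest library of Dbp. Sampling at steps of 4 h over 1 day cannot tell a 24 h cycle from a change over that day.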
